A study of Rattus norvegicus with 12 samples.

Results

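This comparison set rats given NaHS, a salt that releases hydrogen sulfide (H2S), against rats given propargylglycine (PPG), which blocks cystathionine gamma-lyase (Cth), 1 of the enzymes that make H2S. It used 6 of the 12 lung arrays of the series, 3 labelled CS+LPS+NaHS and 3 labelled CS+LPS+PPG, taken by their treatment labels alone. All 6 animals were male Sprague-Dawley rats of 8 to 12 weeks, and both groups had been exposed to cigarette smoke and to bacterial lipopolysaccharide (LPS) instilled into the airway, which the study used as a rat model of chronic obstructive pulmonary disease. Each compound was injected into the abdomen ahead of the exposures, and RNA came from the left upper lobe of the lung, taken a day after the last of them. No array of this comparison came from a rat without smoke and LPS, so a difference below is one between 2 treatments of exposed animals and does not say which of them moved the gene. The labels do not name the animal behind each array, so the errors measure the spread between these samples, and in whole lung tissue fewer cells of a type and less RNA per cell cannot be told apart.

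H2S is a gas made inside cells from cysteine and homocysteine, mainly by Cth, by cystathionine beta-synthase (Cbs) and by 3-mercaptopyruvate sulfurtransferase (Mpst). It is broken down in mitochondria by a chain of enzymes that starts with sulfide quinone oxidoreductase (Sqor). It relaxes vessels in part by opening ATP-sensitive potassium channels, and it has been studied in the lung for effects on inflammation, on oxidative stress and on the remodelling of airways and vessels.

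Single-colour Agilent rat arrays were read as processed signal, and each value below is the log2 of that signal after the arrays were brought to a common 75th percentile, so that a step of 1 is a fold of 2. Each array held 58717 spots for 30367 probes, the 75th percentile of the signal lay between 2167 and 2710.4, and 68.9 to 75.5% of probes were well above background. A probe entered the test if all 3 NaHS arrays, or all 3 PPG arrays, had it well above background, which left 20965 probes and 11215 named genes. All 6 arrays lay on 1 slide, in which the 3 NaHS arrays and PPG replicate 1 shared a row and PPG replicates 2 and 3 lay in the other. A fit with this row as a block, called the row block below, was added after the data were seen. Arrays of 1 group correlated at 0.9906 to 0.9926 (NaHS) and 0.9875 to 0.9919 (PPG), and arrays of different groups at 0.9814 to 0.9901. Where levels of the control group are given, they are those of the 2 control arrays on the same slide, without smoke or LPS, shown for reference and not tested. These control arrays lay in the row of PPG replicates 2 and 3. A difference between NaHS arrays and control arrays therefore cannot be told apart from one between the rows. The same holds for a likeness of PPG replicates 2 and 3 to the control arrays.

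Few probes passed both a 2-fold difference and an unadjusted p under 0.05, while many more passed the p alone at smaller differences. At a 2-fold difference or more, with p below 0.05 before adjustment, limma called 133 of 20965 probes (0.634%). Of these, 49 were higher with NaHS (0.234%) and 84 were higher with PPG (0.401%). An unadjusted p under 0.05 alone was met by 3586 probes (17.1%), 1775 higher with NaHS (8.47%) and 1811 higher with PPG (8.64%). These shares of all probes are the background for every count of list members below. No probe had an adjusted p under 0.05 in limma, nor in the methods' t-test, which had 2954 probes at an unadjusted p under 0.05, so every call below stands on the fold and the unadjusted p. The adjusted p of the 133 called probes lay between 0.12 and 0.292. The 3 arrays of each group did not overlap for 5349 probes (25.5%), 2710 with NaHS above PPG (12.9%) and 2639 with PPG above NaHS (12.6%). The median difference over all probes was 0.01. It was -0.23 over the 1012 brightest probes, those with a mean level above 15, and 0.03 over the others, so small negative differences of very bright genes lay near those of their neighbours in level. The called probes with a gene symbol came from 98 genes, and 93 of the called probes were well above background on all 6 arrays. Leaving out NaHS replicate 2 raised the number called to 201, and leaving out PPG replicate 1 raised it to 200. The calls themselves changed, since each fit without 1 array kept only 82 to 95 of the 133.

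**Figure D1:**
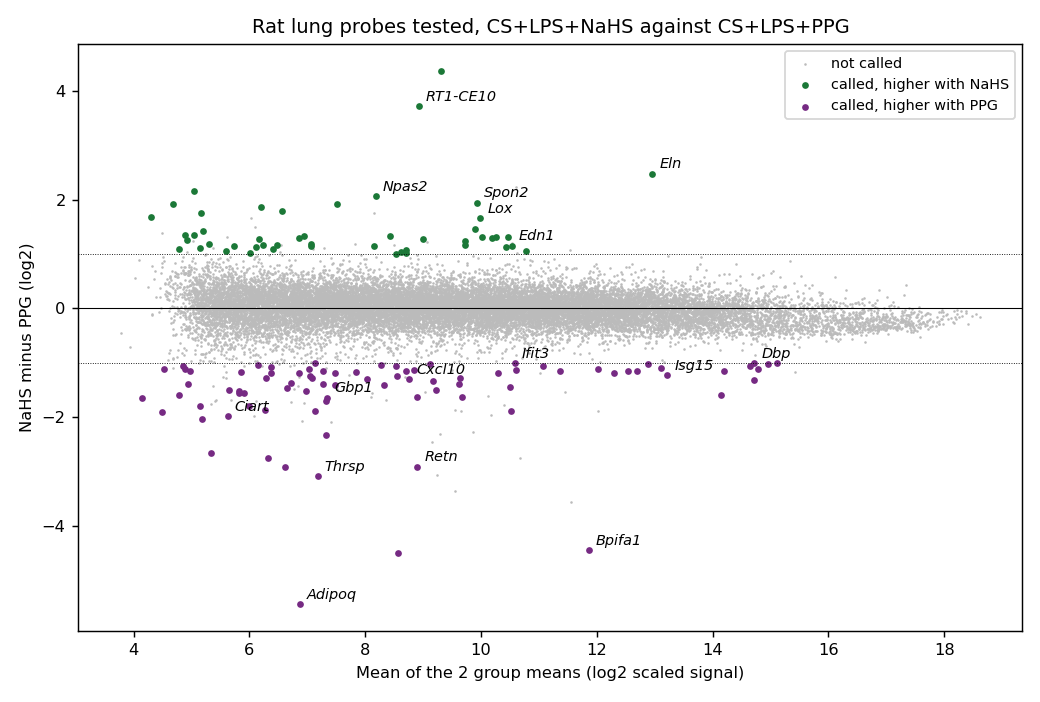
Difference between the group means (NaHS minus PPG, log2) of each of the 20965 probes tested, against the mean of both groups (log2 scaled signal). Green points are the 49 probes called higher with NaHS, purple points the 84 called higher with PPG, grey points the rest, and the dotted lines mark a fold of 2; Eln stands apart at the bright end and Adipoq is the lowest point.

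The clearest difference was in genes of the elastic fibre, which gave more signal with NaHS. Eln encodes elastin, the protein that lets lung tissue recoil, and its signal was 14.16, 14.07 and 14.37 on the NaHS arrays and 11.34, 12.06 and 11.77 on the PPG arrays. Every NaHS array lay above every PPG array, and also above the 2 control arrays at 12.86 and 13.79. The difference was 2.48 (SE 0.19), a fold of 5.57, and its adjusted p in limma, 0.12, was the lowest of all probes. The other Eln probe read 7.31, 7.22 and 7.87 with NaHS and 5.58, 5.65 and 5.75 with PPG, a difference of 1.80 (SE 0.18) with no overlap. Lox encodes lysyl oxidase, which crosslinks elastin and collagen. Its signal was 10.26, 11.11 and 11.07 with NaHS and 9.08, 9.38 and 9.01 with PPG, again without overlap, for a difference of 1.66 (SE 0.25, adjusted p 0.251). The control arrays, at 10.56 and 10.60, lay within the NaHS range and above the PPG range.

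Of 21 elastic fibre genes listed, 19 were tested, and 12 of them were higher with NaHS at an unadjusted p under 0.05, 0 higher with PPG, against 8.47% and 8.64% of all probes. Their median difference was 0.55, against 0.01 over all probes. Only Eln and Lox reached a fold of 2. Among the other crosslinking enzymes, Loxl1 read 11.63, 11.12 and 11.81 with NaHS and 10.73, 11.07 and 10.18 with PPG, a difference of 0.86 (SE 0.27). Loxl2 read 10.59, 10.84 and 10.73 with NaHS and 10.25, 9.87 and 9.86 with PPG, a difference of 0.72 (SE 0.14). Emilin1, whose protein sits where elastin meets the microfibrils, read 12.00, 11.76 and 12.01 with NaHS and 11.23, 11.35 and 11.05 with PPG, a difference of 0.72 (SE 0.13). These 3 genes had their NaHS arrays above their PPG arrays without overlap, and so had Fbln5, which guides elastin onto the fibre, at 0.60 (SE 0.15). The microfibril genes were less even. Fbn1, the fibrillin of the adult microfibril, differed by 0.54 (SE 0.15) and Mfap4 by 0.65 (SE 0.17), while Mfap5 differed by -0.24 (SE 0.12) and Efemp1 by -0.07 (SE 0.19), neither past the test. Leaving out any 1 array left 10 to 12 of the 19 genes higher with NaHS at an unadjusted p under 0.05, and the summed signal of the list was 128240 to 134180 with NaHS, 89561 to 101520 with PPG, and 95682 and 126070 on the control arrays.

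Genes of the collagens and other matrix proteins leaned the same way, by less. Of 18 tested, 8 were higher with NaHS and 1 with PPG at an unadjusted p under 0.05, against 8.47% and 8.64% of all probes. None was called on its brightest probe, and the median difference was 0.31. Col1a1, a chain of the main fibrillar collagen, read 14.26, 14.35 and 14.20 with NaHS and 13.09, 13.13 and 13.78 with PPG. All NaHS arrays were above all PPG arrays, by 0.94 on average (SE 0.20). Col4a1, a chain of basement membrane collagen, read 14.47, 15.03 and 14.95 with NaHS and 14.09, 13.94 and 13.94 with PPG, a difference of 0.82 (SE 0.16), and a dimmer Col4a1 probe was called at 1.00 (SE 0.16), though not without NaHS replicate 2, NaHS replicate 3 or PPG replicate 1. Col5a1 differed by 0.92 (SE 0.15). The exception was Dcn, which encodes decorin, a small proteoglycan that binds collagen fibrils. Dcn read 12.79, 12.57 and 12.59 with NaHS and 13.30, 13.45 and 14.06 with PPG, a difference of -0.95 (SE 0.21). Spp1, which encodes osteopontin, had the widest difference of the list, -1.53 (SE 1.15), with 8.89, 8.72 and 7.16 on the NaHS arrays and 10.57, 7.09 and 11.71 on the PPG arrays, and did not pass the test. Col3a1 and Fn1 differed by 0.43 (SE 0.20) and 0.11 (SE 0.14) and did not pass the test. Spon2, a secreted matrix protein outside both lists, was called at 1.95 (SE 0.44), with 11.18, 10.31 and 11.20 on the NaHS arrays and 8.91, 9.79 and 8.15 on the PPG arrays. Cilp, a matrix protein first described in cartilage, was called at 1.16 (SE 0.17), though not with the row block.

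**Figure D2:**
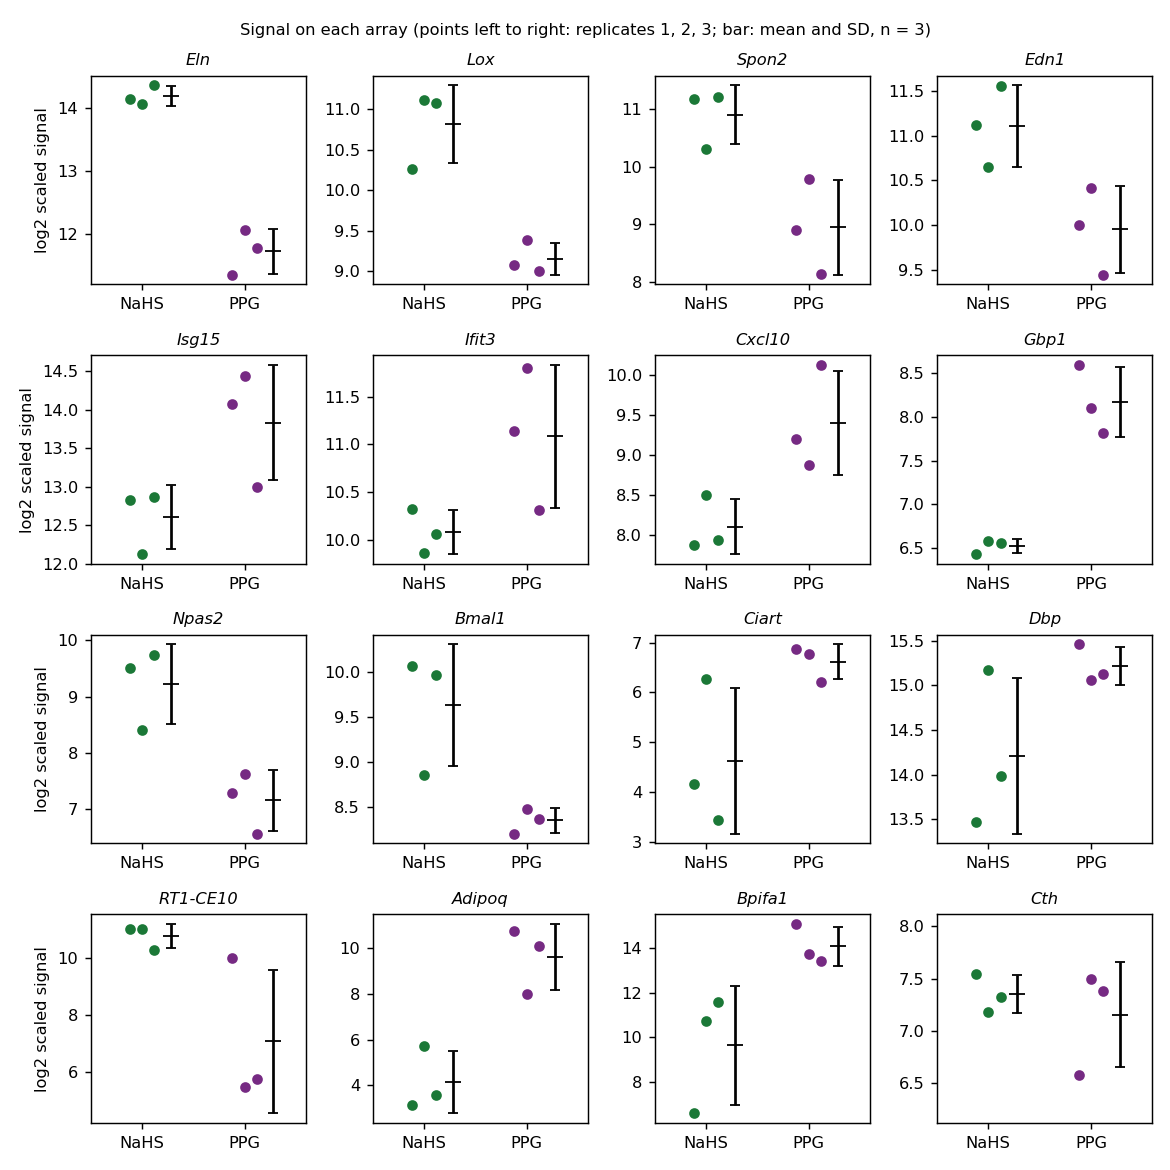
Log2 scaled signal of 16 genes on each array (green, CS+LPS+NaHS; purple, CS+LPS+PPG; 3 arrays each, with the mean and SD beside the points; each panel has its own vertical scale). The Eln and Gbp1 arrays form tight, separate groups, NaHS replicate 2 lies near the PPG arrays for Ciart and Dbp, PPG replicate 1 lies near the NaHS arrays for RT1-CE10, and the Cth arrays overlap.

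Interferon-stimulated genes, which cells switch on when interferon signals the presence of virus or other danger, included 10 genes that were lower with NaHS. All 22 tested members of the list had a negative difference, with a median of -0.59. At an unadjusted p under 0.05, 10 of the 22 were lower with NaHS and 0 higher, against 8.64% and 8.47% of all probes. Of the 22, 4 were called, all lower with NaHS, against 0.401% of all probes. Isg15, a ubiquitin-like protein attached to other proteins, read 12.83, 12.12 and 12.86 with NaHS and 14.08, 14.43 and 12.99 with PPG. The groups did not overlap, but PPG replicate 3 lay only just above the NaHS arrays. The difference was -1.23 (SE 0.39, adjusted p 0.267 in limma), and the control arrays were at 12.17 and 12.53. Ifit3, a partner of the viral RNA sensor Ifit1, read 10.33, 9.86 and 10.06 with NaHS and 11.14, 11.80 and 10.31 with PPG, a difference just past the fold of 2 (SE 0.36) with overlapping arrays. Ifit1 itself was well above background on 1 of 3 NaHS arrays and on all PPG arrays. It read 3.69, 2.20 and 6.11 with NaHS and 6.86, 7.50 and 5.61 with PPG, a difference of -2.66 (SE 0.98).

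The size of this difference depended on single arrays. PPG replicates 1 and 2 were high for most of these genes and PPG replicate 3 lay near the NaHS arrays, as for Mx1, a GTPase that blocks virus replication, at 12.76, 12.35 and 12.91 with NaHS and 13.85, 14.43 and 12.67 with PPG. Without PPG replicate 3, 18 of the 22 genes were lower with NaHS at an unadjusted p under 0.05 and 9 were called. Without PPG replicate 1 or PPG replicate 2, 6 genes were lower and 1 was called, and without NaHS replicate 2, 6 and 1. The median stayed negative in each case, between -0.74 and -0.39. Isg15 and Ifit1 were not called without NaHS replicate 2, PPG replicate 1 or PPG replicate 2, nor was Ifit3, which also lost its call without NaHS replicate 3, and Ifit1 without NaHS replicate 1. Members with tight values in both groups included Gbp2, a guanylate-binding protein that attacks vacuoles holding microbes, which read 13.82, 13.60 and 13.88 with NaHS and 14.32, 14.59 and 14.29 with PPG, a difference of -0.63 (SE 0.13). All PPG arrays were above all NaHS arrays. Its relative Gbp1, which is not in the list, showed an even difference. Gbp1 read 6.43, 6.58 and 6.56 with NaHS and 8.59, 8.10 and 7.81 with PPG, a difference of -1.64 (SE 0.20, adjusted p 0.251), with the control arrays lower still at 5.51 and 5.41. Ifgga2l1, a member of the interferon-gamma-inducible GTPases, was called at -1.13 (SE 0.17), and not without NaHS replicate 1, while Gbp1 was called without any 1 array. With the row block Isg15 and Gbp1 were called, and Ifit1, Ifit3 and Ifgga2l1 were not.

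Interferon acts on many of these genes through a short promoter motif, the interferon-stimulated response element (ISRE). The letters GAAA followed, after any 2 bases, by GAAA again, searched on both strands, were in the 250 bases before the start of 11 of the 16 listed and tested genes that had a RefSeq promoter, and in 3.41% of all 33469 rat promoters. The 3 promoters below were chosen because Cxcl10 and Ifit3 were called and Gbp2 had separate groups; they are RefSeq sequences of build GRCr8, 250 bases before the start, with the matches in capitals. A match of letters describes the sequence and is no sign of binding here.
Ifit3, chr1:241527076-241527325, plus strand: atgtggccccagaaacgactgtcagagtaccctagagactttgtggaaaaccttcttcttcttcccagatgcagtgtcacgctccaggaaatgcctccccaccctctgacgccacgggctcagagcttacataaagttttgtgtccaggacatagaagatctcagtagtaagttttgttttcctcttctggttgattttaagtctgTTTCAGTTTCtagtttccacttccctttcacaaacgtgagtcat
Cxcl10, chr14:15988816-15989065, plus strand: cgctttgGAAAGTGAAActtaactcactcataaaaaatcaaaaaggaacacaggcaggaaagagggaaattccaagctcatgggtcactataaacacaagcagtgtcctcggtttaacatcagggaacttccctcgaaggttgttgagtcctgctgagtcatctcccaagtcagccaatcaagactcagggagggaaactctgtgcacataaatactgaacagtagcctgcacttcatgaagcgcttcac
Gbp2, chr2:234005477-234005726, plus strand: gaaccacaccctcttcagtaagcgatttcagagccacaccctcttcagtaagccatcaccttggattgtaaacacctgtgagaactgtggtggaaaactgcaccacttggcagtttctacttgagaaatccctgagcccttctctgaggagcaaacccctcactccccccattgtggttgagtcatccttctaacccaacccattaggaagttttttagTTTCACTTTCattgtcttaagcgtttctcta

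Chemokines, the proteins that draw leukocytes into tissue, did not move as a family. Of 29 tested, 3 were higher with NaHS and 4 with PPG at an unadjusted p under 0.05, against 8.47% and 8.64% of all probes. The 3 that were called were all higher with PPG, against 0.401% of all probes. Cxcl10, a chemokine that interferon induces and that attracts T cells, read 7.88, 8.50 and 7.94 with NaHS and 9.20, 8.88 and 10.13 with PPG, a difference of -1.30 (SE 0.34). Its PPG arrays were all higher, PPG replicate 3 most, so that it did not follow Isg15 across the PPG arrays. Xcl1, made by activated T and NK cells, read 8.33, 8.23 and 8.28 with NaHS and 8.58, 9.61 and 10.03 with PPG, a difference of -1.13 (SE 0.34). Ccl12, which attracts monocytes, was well above background on 1 of 3 NaHS arrays and read 5.03, 5.89 and 4.33 with NaHS and 6.96, 5.84 and 7.85 with PPG, a difference of -1.80 (SE 0.57) with overlap. Cxcl10 and Xcl1 were not called without PPG replicate 3, nor Ccl12 without NaHS replicate 3, and none of these 3 was called with the row block. Trat1, an adaptor of the T cell receptor, was not well above background on any NaHS array. It was 3.03-fold higher with PPG under the main background correction. With normexp background correction its difference was -0.52 and not called. Of 17 T and NK cell markers tested, 1 was higher with NaHS and 3 with PPG at an unadjusted p under 0.05, and none was called. Their summed signal was 38929 to 54523 with NaHS and 45428 to 51435 with PPG, and its part in the differences of Xcl1, Cxcl10 and Trat1 was not tested.

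Clock genes differed in opposite directions within the list. The clock is a loop in which BMAL1 with CLOCK or NPAS2 switches on genes such as Per2, Dbp and Ciart, whose products include the repressors of the same loop. Both genes of the activating side that were called were higher with NaHS. Npas2 read 9.50, 8.40 and 9.74 with NaHS and 7.27, 7.63 and 6.55 with PPG, without overlap, a difference of 2.07 (SE 0.41, adjusted p 0.251 in limma). Bmal1 read 10.08, 8.85 and 9.98 with NaHS and 8.20, 8.48 and 8.37 with PPG, without overlap, a difference of 1.28 (SE 0.32), and its other probe differed by 1.34 (SE 0.34). Nfil3, a repressor of D-box genes, was higher with NaHS by 0.85 (SE 0.16), short of the fold of 2.

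The 3 called genes that they switch on were lower with NaHS, and their low values were those of NaHS replicates 1 and 3. Dbp, a transcription factor that peaks once a day, read 13.47, 15.18 and 13.98 with NaHS and 15.46, 15.06 and 15.13 with PPG, a difference of -1.01 (SE 0.41). Per2 read 8.14, 9.45 and 8.24 with NaHS and 9.60, 9.26 and 10.03 with PPG, a difference of -1.02 (SE 0.38). Ciart, a repressor of CLOCK and BMAL1, was well above background on 1 of 3 NaHS arrays and read 4.16, 6.27 and 3.45 with NaHS and 6.86, 6.77 and 6.21 with PPG, a difference of -1.99 (SE 0.68). NaHS replicate 2 overlapped the PPG arrays for all 3, and it was also the NaHS array with the lowest Npas2 and Bmal1. Without NaHS replicate 1 or NaHS replicate 3, none of the 3 was called, as also without PPG replicate 1. Without PPG replicate 2 Per2 alone was called, and without PPG replicate 3 Ciart alone. The Dbp call was also lost under quantile normalization, while Npas2 and Bmal1 were called without any 1 array. With the row block Npas2 and Bmal1 were called, and Dbp, Per2 and Ciart were not. In the fit of all 12 arrays the Bmal1 probe at 1.28 lost its call, and so did Dbp, Per2 and Ciart. The Bmal1 probe at 1.34 lost its call with normexp background correction. In all, of 15 clock genes tested 3 were higher and 3 lower with NaHS at an unadjusted p under 0.05, against 8.47% and 8.64% of all probes. Clock, Per1, Per3, Cry1, Cry2, Nr1d1, Nr1d2, Tef and Bhlhe40 did not pass, with differences from -0.38 (Nr1d2) to 0.39 (Nr1d1). The control arrays read 8.14 and 8.93 for Npas2, 9.86 and 10.69 for Bmal1, 13.30 and 13.14 for Dbp and 10.04 and 9.63 for Per2. The labels give no hour of the day at which lungs were taken.

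Clock factors act through the E-box (CACGTG), the D-box (searched as TTATGNAA) and the ROR element (searched as TNGGTCA). Both strands of the 250 bases before the start were searched in the 14 tested clock genes with a RefSeq promoter. The E-box was in 3 of them (Tef, Ciart and Bhlhe40) and in 5.59% of all promoters, the D-box in Per2 alone and in 3.28%, and the ROR element in Bmal1 alone and in 9.47%. The promoters of the 3 called genes that held a motif follow, in GRCr8, with the motif in capitals.
Ciart, chr2:186112247-186112496, minus strand: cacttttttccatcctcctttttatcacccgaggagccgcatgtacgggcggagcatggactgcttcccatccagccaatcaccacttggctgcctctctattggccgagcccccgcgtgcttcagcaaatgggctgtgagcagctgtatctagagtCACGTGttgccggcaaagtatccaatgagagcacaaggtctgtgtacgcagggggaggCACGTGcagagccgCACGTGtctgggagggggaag
Per2, chr9:99496994-99497243, minus strand: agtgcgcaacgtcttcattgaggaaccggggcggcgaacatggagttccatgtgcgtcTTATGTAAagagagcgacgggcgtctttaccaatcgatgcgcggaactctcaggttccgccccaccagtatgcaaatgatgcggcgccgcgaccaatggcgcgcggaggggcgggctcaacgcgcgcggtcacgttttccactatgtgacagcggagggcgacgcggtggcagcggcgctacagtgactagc
Bmal1, chr1:176766078-176766327, plus strand: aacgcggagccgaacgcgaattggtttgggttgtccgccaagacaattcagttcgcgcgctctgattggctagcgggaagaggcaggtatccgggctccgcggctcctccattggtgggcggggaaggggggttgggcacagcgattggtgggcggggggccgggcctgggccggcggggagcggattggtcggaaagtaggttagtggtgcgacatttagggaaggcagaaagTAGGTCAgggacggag

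MHC class I genes, which in the rat carry the name RT1 and show peptides to cytotoxic T cells, split into 2 patterns. Of 32 class I RT1 probes tested, 6 were higher with NaHS and 13 higher with PPG at an unadjusted p under 0.05, against 8.47% and 8.64% of all probes, and 3 and 9 were called, against 0.234% and 0.401%. These probes were gathered by gene name and are not a set list. The set list of MHC class I and antigen processing genes, 19 tested on their brightest probes, had 4 higher with NaHS and 5 with PPG. Of that list 1 gene was called higher with NaHS and 0 with PPG. The 9 called higher with PPG included RT1-CE16 at 13.70, 13.76 and 14.68 with NaHS and 15.24, 15.79 and 15.08 with PPG, a difference of -1.33 (SE 0.31) without overlap. RT1-CE3 read 9.44, 9.32 and 10.57 with NaHS and 10.84, 11.77 and 11.04 with PPG, a difference of -1.44 (SE 0.38). In this group NaHS replicate 3 was the highest of the NaHS arrays, and the control arrays were like the PPG arrays, at 15.21 and 15.60 for RT1-CE16 and 10.91 and 11.34 for RT1-CE3.

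The 3 called higher with NaHS did not part the groups evenly. RT1-CE10 read 11.04, 11.02 and 10.29 with NaHS and 9.99, 5.47 and 5.74 with PPG, a difference of 3.72 (SE 1.15). PPG replicate 1 was like the NaHS arrays, and PPG replicates 2 and 3 were far lower, and without PPG replicate 1 RT1-CE10 and the dimmer RT1-CE5 probe named next had an adjusted p under 0.05 in limma. A dimmer RT1-CE5 probe read 11.84, 11.62 and 11.05 with NaHS and 10.86, 5.39 and 5.14 with PPG, a difference of 4.38 (SE 1.45), while the brighter RT1-CE5 probe differed by -0.25 (SE 0.16). The same step separated the control arrays, at 10.10 and 4.91 for RT1-CE10 and 10.70 and 4.85 for the dimmer RT1-CE5 probe, and neither was called without PPG replicate 3, nor the RT1-CE5 probe without PPG replicate 2 or NaHS replicate 1. RT1-N1 was called at 1.31 (SE 0.35), again not without PPG replicate 3. With the row block RT1-CE16 was called and RT1-CE3, RT1-CE10, RT1-CE5 and RT1-N1 were not. These genes are near copies of each other, so a probe can take up RNA of its neighbours and the gene behind each signal is uncertain. RT1 genes also differ in sequence and number between rats, and the RT1 type of these rats is not given in the sources used here. The partner chain B2m, which all class I molecules need, read 16.37, 16.45 and 16.24 with NaHS and 16.45, 16.39 and 16.81 with PPG, a difference of -0.19 (SE 0.14). The immunoproteasome subunits that cut peptides for class I were lower with NaHS, Psmb9 at -0.52 (SE 0.11) and Psmb10 at -0.41 (SE 0.09), both without overlap.

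Most fat cell markers were lower with NaHS, among them Adipoq, which encodes adiponectin, a hormone made by fat cells. It read 3.17, 5.71 and 3.58 with NaHS and 10.72, 7.97 and 10.09 with PPG, a difference of -5.44 (SE 0.89, adjusted p 0.251 in limma), and was well above background on 1 of 3 NaHS arrays, so that its size depended on the background correction, at -3.21 with normexp. On the control arrays it read 3.74 and 4.37. Of 10 tested fat cell markers, 9 were lower and 1 higher with NaHS at an unadjusted p under 0.05, against 8.64% and 8.47% of all probes. Of these markers 5 were called, all lower with NaHS, against 0.401% of all probes, and the median difference was -1.09. Thrsp, a regulator of fat synthesis, read 5.77, 5.86 and 5.27 with NaHS and 9.76, 7.27 and 9.12 with PPG, a difference of -3.09 (SE 0.60). Car3, a carbonic anhydrase of fat and muscle, read 5.07, 4.93 and 5.46 with NaHS and 9.05, 6.82 and 8.36 with PPG, a difference of -2.93 (SE 0.53). For both genes PPG replicates 1 and 3 were highest and PPG replicate 2 lay closest to the NaHS arrays. Fabp4, a fatty acid carrier of fat cells and macrophages, read 9.95, 10.01 and 9.11 with NaHS and 11.21, 10.68 and 10.76 with PPG, a difference of -1.19 (SE 0.27). Retn, which encodes resistin, read 9.64, 6.58 and 6.10 with NaHS and 11.44, 9.05 and 10.56 with PPG, with NaHS replicate 1 among the PPG arrays, a difference of -2.91 (SE 1.01). Adipoq, Thrsp and Car3 were called without any 1 array, Fabp4 not without NaHS replicate 3, and Retn not without NaHS replicate 2, NaHS replicate 3, PPG replicate 1 or PPG replicate 3. Lipe, the hormone-sensitive lipase, went the other way at 0.46 (SE 0.13). The summed signal of the 10 markers was 7945.8 to 10313 with NaHS, 14009 to 21394 with PPG, and 5712.1 and 6191 on the control arrays. The sum is made of these same markers, so it is no separate evidence for their direction. The part of fat tissue in these values was not tested.

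Heart muscle genes differed by more, with a wider spread between arrays. The 12 tested markers had a median difference of -2.11, and 2 were called, both higher with PPG, against 0.401% of all probes. Myl7, the atrial myosin light chain, read 3.90, 14.35 and 12.57 with NaHS and 14.84, 13.88 and 14.84 with PPG, a difference of -4.25 (SE 2.50) that did not pass the test. NaHS replicate 1 was below the control arrays (5.41 and 5.08), NaHS replicate 2 was among the PPG arrays and NaHS replicate 3 lay between. Myh6, the atrial myosin heavy chain, followed the same order with 4.32, 13.40 and 11.61 with NaHS and 13.55, 12.81 and 13.63 with PPG. NaHS replicate 1 was the lowest NaHS array for 10 of the 12 genes. Fabp3, the fatty acid carrier of muscle, was called at -1.63 (SE 0.54) and Myl4 at -1.63 (SE 0.64), with overlap only for Myl4. Fabp3 was not called without PPG replicate 3, and Myl4 was called only without NaHS replicate 2 or PPG replicate 2. Without NaHS replicate 1 the median difference was -0.83 and 1 gene was called, and without NaHS replicate 2 it was -3.10 and 10 were called. Muscle genes outside the list that were called higher with PPG, Casq2 (-1.25, SE 0.49), Myom2 (-1.87, SE 0.70) and Apobec2 (-1.70, SE 0.62), also read lowest on NaHS replicate 1. Each of these lost its call without PPG replicate 1 or PPG replicate 3, Casq2 and Myom2 also without NaHS replicate 1 or NaHS replicate 3, and Myom2 without PPG replicate 2, and none of the 5 called muscle genes named here was called with the row block. Summed heart muscle signal was 11323 to 67042 with NaHS, 48929 to 85322 with PPG, and 7726.2 and 6858.6 on the control arrays, and the part of heart tissue in these values was not tested.

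**Figure D3:**
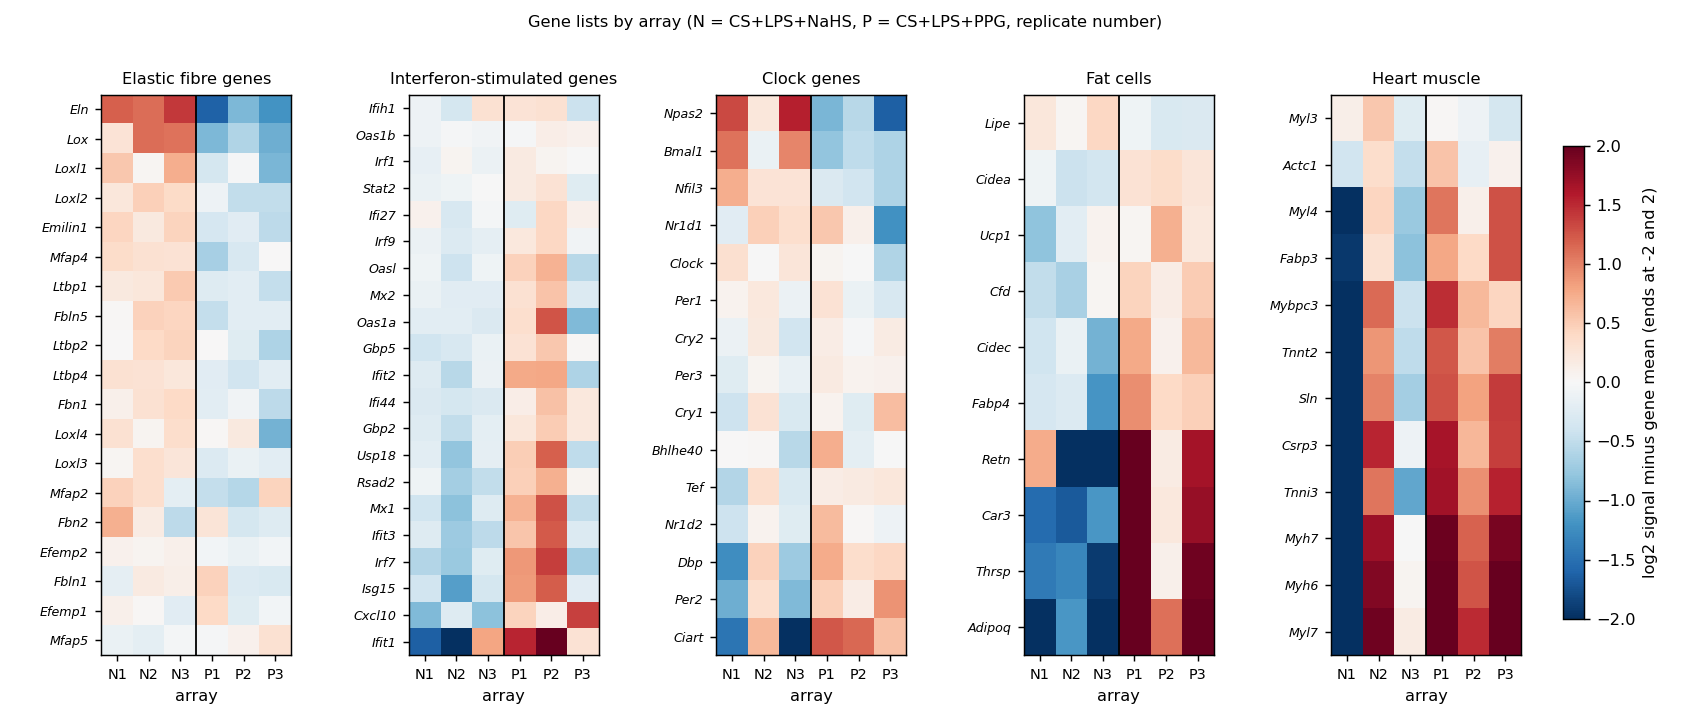
Log2 scaled signal minus each gene's mean over the 6 arrays, for tested members of 5 lists (1 interferon-stimulated gene is not shown), ordered by their difference (N, CS+LPS+NaHS; P, CS+LPS+PPG; numbers are replicates; red above and blue below the gene's mean, colours end at -2 and 2). The elastic fibre and fat cell lists change at the line between the groups, the interferon list is highest on P1 and P2, the clock genes at the bottom are low on N1 and N3, and the heart muscle list is low mainly on N1.

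In the airway secretory cells, 2 of 10 tested markers were called, both higher with PPG, against 0.401% of all probes. Bpifa1, a secreted defence protein of the airway lining, read 6.59, 10.73 and 11.59 with NaHS and 15.10, 13.73 and 13.43 with PPG, a difference of -4.45 (SE 1.26, adjusted p 0.267 in limma) without overlap. NaHS replicate 1 was close to the control arrays (5.04 and 6.31) and the other NaHS arrays lay between these and the PPG arrays. The Bpifa1 call was kept in 21 of 22 alternatives and lost with the methods' t-test. Scgb3a1, a secretoglobin of the upper airway, read 14.18, 14.57 and 13.92 with NaHS and 15.56, 14.62 and 15.86 with PPG, a difference of -1.12 (SE 0.33), and was not called without NaHS replicate 3 or PPG replicate 3. Agr2, a mucus-folding protein, was lower with NaHS, at -0.76 (SE 0.29), short of the fold of 2. Scgb1a1, the main club cell protein, read 17.56, 17.29 and 17.30 with NaHS and 17.47, 17.15 and 17.52 with PPG, a difference of 0.00 (SE 0.14), and Muc5b differed by -0.05 (SE 0.44). The 10 markers summed to 285050 to 343210 with NaHS and 285290 to 417370 with PPG.

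No enzyme that forms H2S passed the test. Cth, the enzyme that PPG blocks at the protein, read 7.54, 7.18 and 7.32 with NaHS and 6.58, 7.50 and 7.38 with PPG, a difference of 0.20 (SE 0.25, adjusted p 0.692 in limma) with overlap. PPG replicate 1 was the lowest array and the other PPG arrays lay among the NaHS arrays. The 95% interval of the difference was -0.41 to 0.80, so a fold of 2 in either direction lay outside it. Cbs read 7.13, 6.76 and 7.86 with NaHS and 6.77, 7.59 and 8.06 with PPG, a difference of -0.22 (SE 0.39, 95% interval -1.16 to 0.71), and the control arrays were higher at 8.44 and 9.18. Mpst differed by 0.07 (SE 0.12), Got1 by 0.04 (SE 0.13), Got2 by 0.03 (SE 0.09) and Ahcy by 0.08 (SE 0.14). None of the 6 reached an unadjusted p under 0.05.

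Of 5 tested genes listed under sulfide oxidation, 1 passed an unadjusted p under 0.05. This was Txn1, thioredoxin, and none of the listed enzymes of the chain passed. Txn1 read 16.81, 16.65 and 16.44 with NaHS and 16.88, 16.87 and 17.16 with PPG, a difference of -0.34 (SE 0.14), and was 1 of the brightest genes. With quantile normalization its difference was -0.12, with an unadjusted p of 0.203 in limma. Sqor, the first enzyme of the chain, differed by -0.10 (SE 0.14), Ethe1 by 0.02 (SE 0.10), Tst by -0.14 (SE 0.14) and Suox by 0.22 (SE 0.11). Of the ATP-sensitive potassium channel, the pore Kcnj8 read 11.22, 11.11 and 11.25 with NaHS and 11.42, 11.17 and 11.15 with PPG, a difference of -0.05 (SE 0.11). Its regulatory subunit Abcc9 read 10.62, 10.64 and 10.71 with NaHS and 10.59, 10.16 and 9.93 with PPG, a difference of 0.43 (SE 0.17) at an unadjusted p under 0.05 and short of the fold of 2. PPG replicate 1 was level with the NaHS arrays there. Of 15 tested gasotransmitter targets of vessels, 3 were higher with NaHS and 0 with PPG at an unadjusted p under 0.05, the other 2 being Pde5a, the phosphodiesterase that degrades cGMP, at 0.56 (SE 0.21) and Gucy1a2, a subunit of the nitric oxide receptor, at 0.47 (SE 0.10). None was called.

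Antioxidant genes that NRF2 controls showed no common direction. Of 27 tested, 5 were higher with NaHS and 1 with PPG at an unadjusted p under 0.05, none was called, and the median difference was -0.03. Cat, catalase, read 10.36, 10.60 and 10.59 with NaHS and 10.09, 9.89 and 9.74 with PPG, a difference of 0.62 (SE 0.13) without overlap. Prdx1, a peroxiredoxin, was lower with NaHS, at -0.54 (SE 0.17). The NRF2 targets most often read as its markers, Nqo1, Hmox1 and Gclc, differed by 0.01 (SE 0.20), -0.03 (SE 0.13) and -0.06 (SE 0.13). Of the smoke-responsive targets of the aryl hydrocarbon receptor, Cyp1a1 was called. It read 9.02, 9.64 and 8.98 with NaHS and 7.85, 8.83 and 7.92 with PPG, a difference of 1.02 (SE 0.31). The call was lost without NaHS replicate 2, PPG replicate 1 or PPG replicate 3. It was also lost under quantile normalization, with scaling by the median and with normexp background correction. The other 7 targets tested were not called.

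The study had singled out 16 genes of apoptosis and oxidative stress in other comparisons of the series, 1 of which, NaHS against smoke and LPS alone, used the same 3 NaHS arrays, so their count is no independent evidence of a direction. Of 15 tested, 6 were higher with NaHS and 0 with PPG at an unadjusted p under 0.05, against 8.47% and 8.64% of all probes, and 1 was called. Ptgs2, the inducible cyclooxygenase, was well above background on all NaHS arrays and on 1 of 3 PPG arrays, at 5.57, 5.64 and 5.93 with NaHS and 5.18, 3.31 and 4.62 with PPG, a difference of 1.34 (SE 0.44). PPG replicate 2 was the lowest, and the call was lost without it, without NaHS replicate 3 and with the row block. The Ptgs2 call was also lost with normexp background correction and in the fit of all 12 arrays. Ppargc1a, a driver of mitochondrial biogenesis, differed by 0.61 (SE 0.23), Pdia3, a chaperone of the endoplasmic reticulum, by 0.54 (SE 0.13), Aldh1a3, which makes retinoic acid, by 0.49 (SE 0.20) and Jun, a subunit of AP-1, by 0.45 (SE 0.17). For each of these 4 the unadjusted p was under 0.05 and the fold under 2. Ctrb1 read 11.41, 11.37 and 10.58 with NaHS and 9.09, 10.51 and 10.72 with PPG, with overlap. C6, Itgb1, Itga6, Kcnma1, Igfbp3, Mpo, Tnfrsf8 and Mnda did not pass, with differences from -0.73 (Mnda) to 0.73 (C6).

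Chaperones of the endoplasmic reticulum and of the heat shock response were higher with NaHS in a minority. Of 19 tested, 6 were higher with NaHS and 0 with PPG at an unadjusted p under 0.05, against 8.47% and 8.64% of all probes, with a median difference of 0.32. Hsph1, a heat shock protein, was called at 8.69, 9.93 and 8.80 with NaHS and 7.65, 8.09 and 8.58 with PPG, a difference of 1.03 (SE 0.38). Hspa5, the main chaperone of the endoplasmic reticulum, read 14.93, 15.59 and 14.98 with NaHS and 14.42, 14.44 and 14.82 with PPG, a difference of 0.61 (SE 0.21). NaHS replicate 2 was the highest array and PPG replicate 3 the highest PPG array for both. Without NaHS replicate 2, PPG replicate 1 or PPG replicate 2, 2 of the 19 genes passed and none was called, and without PPG replicate 3, 11 passed and 3 were called. The Hsph1 call was also lost with scaling by the median, with normexp background correction and in the fit of all 12 arrays. Ddit3, Xbp1 and Atf6, regulators of the unfolded protein response, differed by -0.08 (SE 0.17), -0.19 (SE 0.11) and -0.03 (SE 0.14).

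Among 15 endothelial markers tested, 3 were higher with NaHS and 0 with PPG at an unadjusted p under 0.05, against 8.47% and 8.64% of all probes, and 2 were called. Edn1, the vasoconstrictor endothelin, read 11.12, 10.65 and 11.55 with NaHS and 10.00, 10.41 and 9.44 with PPG, a difference of 1.16 (SE 0.31) without overlap. Cdh5, the cadherin of endothelial junctions, read 10.99, 11.38 and 11.54 with NaHS and 10.86, 10.02 and 9.90 with PPG, a difference of 1.05 (SE 0.28). Without NaHS replicate 3 or PPG replicate 3 neither was called, nor Cdh5 without PPG replicate 2, and neither was called with the row block. Pecam1 and Kdr, which mark the same cells, differed by 0.23 (SE 0.10) and 0.03 (SE 0.18), and the 15 markers summed to 201690 to 219240 with NaHS and 172120 to 199990 with PPG. Cd300lg, a receptor of capillary cells, had the largest mean difference of the list, 2.24, which rested on 1 array. It read 12.46, 11.33 and 11.37 with NaHS and 11.61, 5.74 and 11.10 with PPG, and did not pass the test (SE 1.47).

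Mast cell proteases did not move together. Mcpt1 was called at 1.16 (SE 0.35), with 10.93, 10.49 and 9.49 on the NaHS arrays and 9.15, 8.92 and 9.37 on the PPG arrays, and not without NaHS replicate 1 or with the row block. Cma1, a chymase, was lower with NaHS, at 8.60, 8.77 and 8.78 with NaHS and 9.39, 9.72 and 9.51 with PPG, a difference of -0.83 (SE 0.12) without overlap. Mcpt1l4, a near copy of Mcpt1, was not well above background on any PPG array. It was 3.4-fold higher with NaHS under the main background correction. With normexp background correction its difference was 0.46, and it was called neither there nor with the row block. Kit, the receptor that marks mast cells, differed by 0.23 (SE 0.18).

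Other called genes with separate groups and signal on all 6 arrays were of mixed function. Higher with NaHS were Stk32b, a kinase, at 8.52, 8.42 and 8.47 with NaHS and 6.98, 6.78 and 5.88 with PPG, a difference of 1.93 (SE 0.28). Plpp4, a lipid phosphatase, was higher by 1.46 (SE 0.38), Hs3st6, which sulfates heparan chains, by 1.32 (SE 0.26), and Rnf152, a ubiquitin ligase, by 1.29 (SE 0.39), the last not without NaHS replicate 3 or with the row block. Acsm5, an acyl-CoA synthetase, was called on its dimmer probe at 1.31 (SE 0.32) and differed by 0.40 (SE 0.19) on its brighter one, with overlap. Higher with PPG were Sbsn and Myoc, which differed by -1.55 (SE 0.36) and -1.46 (SE 0.30). Some called genes were not well above background on any array of 1 group, so their folds depend on the background correction and are not lower limits. Under the main background correction C14h7orf57 was 2.17-fold higher with NaHS. Wfdc18, Nat8f2 and Bcl2l15 were 3.01-fold, 2.66-fold and 2.18-fold higher with PPG. C14h7orf57 was not called without PPG replicate 3, nor Bcl2l15 without NaHS replicate 3 or PPG replicate 3, and neither they nor Wfdc18 with the row block. With normexp background correction none of the 4 was called, and the differences were 0.24 for C14h7orf57, -0.58 for Wfdc18, -0.52 for Nat8f2 and -0.40 for Bcl2l15.

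Several lists showed no call in either direction. Of 19 proliferation genes tested, 0 had an unadjusted p under 0.05, and the nearest, Pcna, the sliding clamp of DNA replication, differed by -0.34 (SE 0.18). Their summed signal was 26915 on PPG replicate 3 and 14744 to 18135 on the other 5 arrays, and without that array 2 genes were higher with NaHS and the median difference was 0.19, against -0.10 with it. Of 23 apoptosis and p53 targets, 2 were higher with NaHS and 0 with PPG, with a median of -0.01, and both were Gadd45 genes of the DNA damage response, Gadd45a at 0.29 (SE 0.10) and Gadd45b at 0.34 (SE 0.13). Of 18 genes of cysteine and methionine metabolism, which feeds the H2S-forming enzymes, 0 were higher with NaHS and 1 with PPG, and of 19 amino acid response genes, 2 and 2. Sesn2, a stress sensor, was higher with NaHS by 0.64 (SE 0.14), and Phgdh, the first enzyme of serine synthesis, lower, at -0.56 (SE 0.14). Of matrix proteases and their inhibitors, 2 of 17 were higher with NaHS and 0 with PPG, Mmp2, a gelatinase, by 0.52 (SE 0.09) and Timp3, an inhibitor held in the matrix, by 0.86 (SE 0.30). Smooth muscle markers, which belong to cells that also make elastin, gave 2 of 9 higher with NaHS (Smtn by 0.39, SE 0.11, and Lmod1 by 0.42, SE 0.17) and 0 with PPG, and summed to 76556 to 93256 with NaHS and 73378 to 90875 with PPG. Their part in the Eln difference was not tested.

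**Figure D4:**
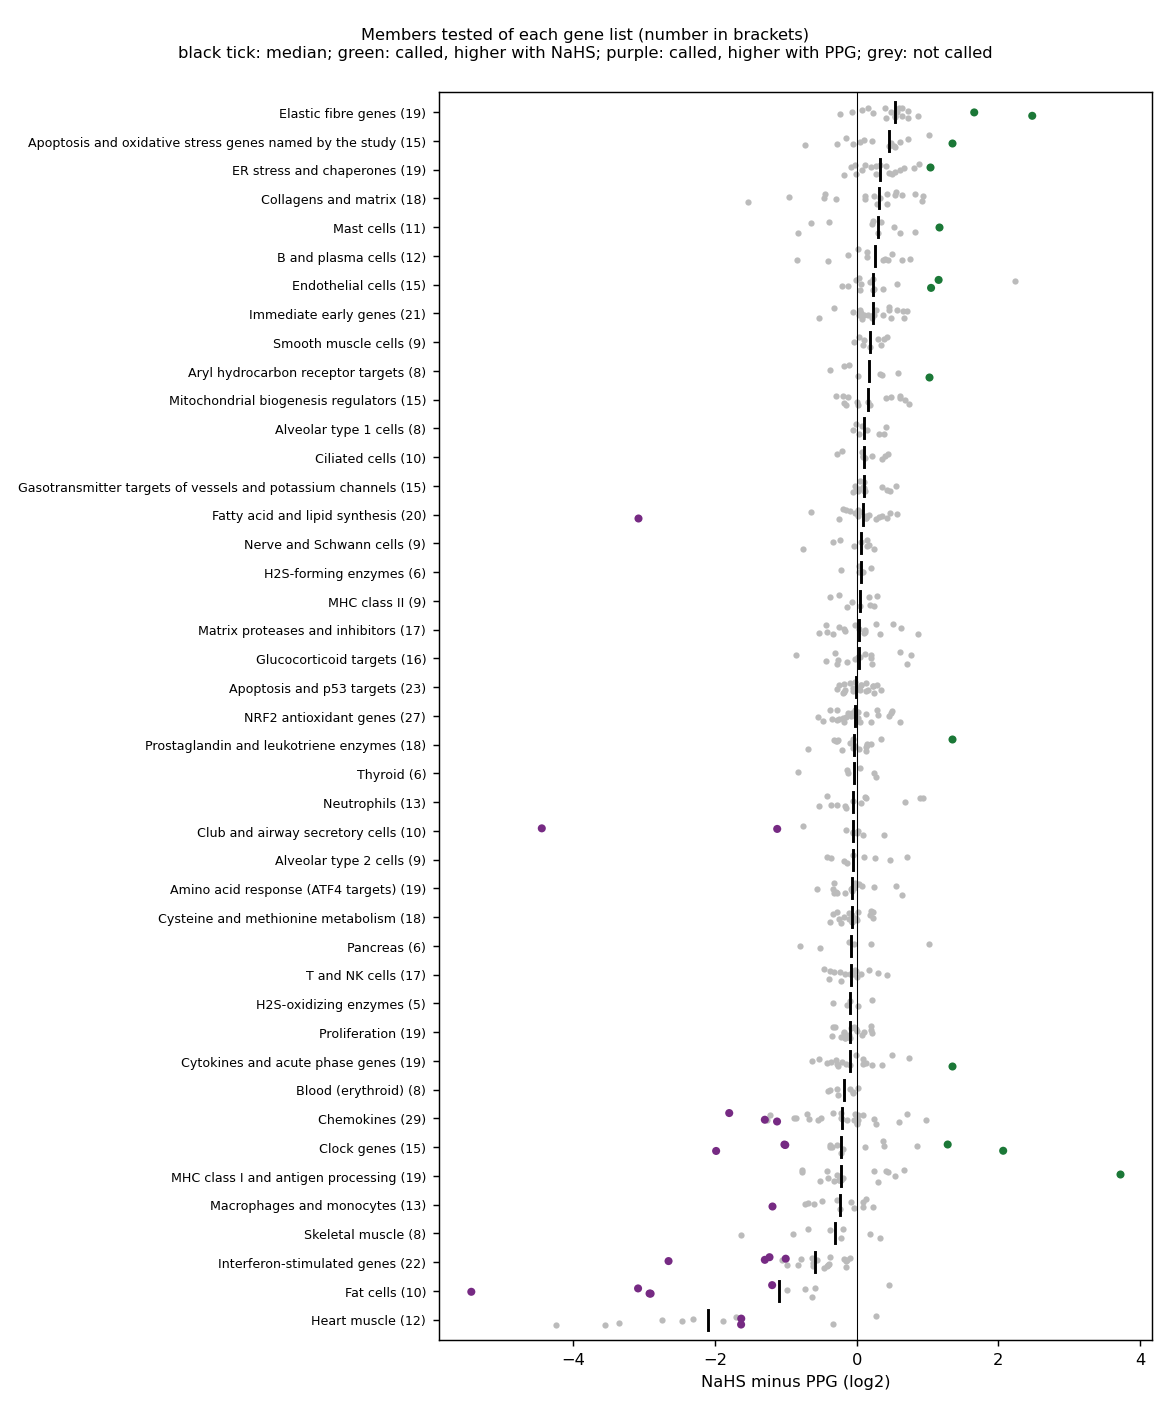
Difference (NaHS minus PPG, log2) of every tested member of each gene list with at least 5 tested members, lists ordered by their median (black tick). Green points were called higher with NaHS and purple points higher with PPG; elastic fibre genes have the highest median (0.55), and the interferon-stimulated, fat cell and heart muscle lists the lowest (-0.59, -1.09 and -2.11).

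The position of the arrays on the slide limits these results. In the row that held all NaHS arrays, PPG replicate 1 was the only PPG array. With the row block 217 probes were called, of which 57 were shared with the 133, and 41 of the 70 called probes of named genes were not called. Against PPG replicate 1 alone the difference was 2.86 for Eln, 1.73 for Lox, 1.94 for Npas2, -2.07 for Gbp1, -6.57 for Adipoq and 0.45 for Cdh5.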

How the data were processed

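Lung RNA was labelled in 1 colour and hybridized to Agilent rat arrays. The authors deposited the scanner files of Agilent Feature Extraction 10.7.3.1, whose processed signal, an intensity, is background-subtracted and not scaled between arrays. They also deposited lists of probes with their own normalized values, fold changes and p-values, which were not used (120 columns of per-sample values) except that 194 probes took their gene symbol from these lists and 17514 from RefSeq accessions, and 12659 stayed unnamed. NaHS replicate 1 was deposited with 3 significant digits.

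Control spots and outlier spots (446 to 670 per array) were left out, log2 signals were brought to a common 75th percentile, and spots of a probe were averaged. The fit was limma 3.58.1 in R 4.3.3 (lmFit, eBayes, two-sided) on the 6 arrays, NaHS minus PPG, with Benjamini-Hochberg adjustment over all probes tested, and was tested on simulated data. A call needed a fold of 2 and an unadjusted p under 0.05, after the study's methods. The smallest p that an exact permutation of 3 against 3 arrays allows is 0.1, so none was run. The number of arrays limits the precision.

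The brightest probe stood for a gene. Genes were named where they were among the 15 largest calls in a direction with signal on all 6 arrays and no overlap, in the H2S and potassium channel lists or the 16 genes named by the study, among up to 4 called members of a list, among the 2 with the smallest p where none was called, or among up to 5 calls in a direction below background in 1 group. Other members of the elastic fibre, collagen, interferon, clock, fat, heart, MHC class I, endothelial, mast cell, airway secretory, NRF2 and chaperone lists were named after their values were seen, as were Cilp, Ifgga2l1, Casq2, Myom2, Apobec2, Sesn2 and Phgdh. The members and lists were chosen with earlier results of these data known. The fold of a called gene not well above background on any array of 1 group is an estimate. It sets the mean of the bright group against the mean, over the arrays of the other, of the lowest signal well above background or the gene's own value, whichever was higher. A few genes that this rule named are not reported here. Promoters are from RefSeq (GRCr8). Alternatives changed the scaling, background correction, filter, arrays in the fit, blocks and test, and left out each array in turn.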

Additional observations from a re-analysis of the deposited data

How the results depend on the processing

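None of the 70 called probes of named genes reversed its direction in any alternative run, and the other called probes were not followed. The 133 calls became 68 with normexp background correction, 221 with probes well above background on at least 1 array and 289 without a filter. They became 66 with the methods' t-test and 217 with the row on the slide as a block, and leaving out 1 array gave 143 to 201. Scaling by quantiles, by another percentile or by the median gave 129 to 144. Of the 133, 62 were kept with normexp, 57 with the row block and 82 to 95 without 1 array. The 0 probes at an adjusted p under 0.05 became 1 with normexp (Eln), 2 with the row block (Slc35d1 and Polr1e, seen after the fact) and 0 to 2 without 1 array (RT1-CE10 and RT1-CE5, without PPG replicate 1). Over the named probes and alternatives, 7578 values stayed on their side of the threshold (164 of them, none of a called probe, with the sign changed), 299 fell short of it and 80 newly passed it, and the cause was not tested. Of the called named probes, 1 of Eln and those of Lox, Npas2, Spon2, Stk32b, Thrsp, Car3, Gbp1, Hs3st6, Plpp4 and RT1-CE16 stayed called in all 22 alternatives that held them, and Adipoq in all of its 21. Replicate numbers did not pair the arrays: deviations from the group means correlated at -0.17, -0.17 and -0.33 between arrays of the same number, and with the replicate block 144 probes were called and 0 after adjustment. The row block, the fit of 11 arrays without control replicate 3 (128 calls) and the rounding of all signals (133 calls) were chosen after the data were seen. Intensity over background limits dim probes, since 9402 of 30367 were not tested.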

Other observations

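Regulators of mitochondrial biogenesis were higher with NaHS in a minority. Of 15 tested, 5 were higher with NaHS and 0 with PPG at an unadjusted p under 0.05 in limma (8.47% and 8.64% of all probes, as for every count here), none was called, and the median difference was 0.16. Ppara, a nuclear receptor that drives fatty acid oxidation, was well above background on all NaHS arrays and on 1 of 3 PPG arrays and read 5.20, 5.76 and 5.66 with NaHS and 4.96, 4.75 and 4.71 with PPG, a difference of 0.74 (SE 0.17) without overlap. Ppargc1b, a coactivator related to Ppargc1a, read 7.62, 7.85 and 7.78 with NaHS and 7.52, 6.86 and 7.04 with PPG, a difference of 0.61 (SE 0.18). Of 16 glucocorticoid targets, 2 were higher with NaHS and 0 with PPG, Pdk4, a brake on glucose oxidation that was well above background on 2 of 3 PPG arrays, by 0.77 (SE 0.25) and Angptl4, an inhibitor of lipoprotein lipase, by 0.61 (SE 0.24). Of 21 immediate early genes, 4 were higher with NaHS and 1 with PPG, with Btg2 at 0.46 (SE 0.15) and Egr2 at -0.53 (SE 0.18). The genes of fatty acid and lipid synthesis, 20 tested, had 3 higher with each treatment and a median of 0.09, and Thrsp was the only one called.

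Markers of leukocytes showed small and mixed differences. Of 12 B and plasma cell markers, 2 were higher with NaHS and 0 with PPG, Cd22 by 0.50 (SE 0.13) and Cd79a by 0.40 (SE 0.15). Of 13 neutrophil markers, 2 were higher with NaHS and 0 with PPG, Csf3r, the receptor of the neutrophil growth factor, by 0.68 (SE 0.14) and Prtn3, a granule protease, by 0.94 (SE 0.21), while their summed signal overlapped, at 33997 to 57361 with NaHS and 41719 to 66011 with PPG. Among T cell genes, Cd4 was higher with NaHS by 0.43 (SE 0.13) and Cd2 lower, at -0.47 (SE 0.14). MHC class II genes gave 0 of 9 higher with NaHS and 2 with PPG, RT1-Da at -0.38 (SE 0.16) and RT1-DMb at -0.24 (SE 0.09). Of 13 macrophage and monocyte markers, 0 were higher with NaHS and 3 with PPG, of which Fabp4, described with the fat cell markers, was called.

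Of the epithelial markers, Lpcat1, a surfactant lipid enzyme of alveolar type 2 cells, was higher with NaHS by 0.71 (SE 0.19) and Lamp3 lower, at -0.42 (SE 0.16), and in type 1 cells Gprc5a and Ager were higher by 0.39 (SE 0.12) and 0.31 (SE 0.12). Of the ciliated cell markers Dnai1, a dynein of the cilium, was higher with NaHS by 0.44 (SE 0.10) and Foxj1, the regulator of cilia, lower, at -0.28 (SE 0.12). None of these was called. Skeletal muscle markers gave 2 of 8 lower with NaHS, Tnnc2 at -0.69 (SE 0.21) and Myl11 at -0.38 (SE 0.14), and pancreas markers 2 of 6 lower, among them Ctrc at -0.51 (SE 0.10). The markers of blood (8), thyroid (6), nerve (9) and liver (3) had no member with an unadjusted p under 0.05. Of 19 cytokine and acute phase genes tested, 2 were higher with NaHS and 1 with PPG, and of 18 enzymes of prostaglandins and leukotrienes, 1 and 1, and Ptgs2 was the only call in both lists.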
